A study of Mus musculus with 13 samples.

Results

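The mouse allele MommeD45, which the series title places in the second linker of KLF1, was set against 1 intact Klf1 allele in fetal liver at 14.5 days post coitum. The 228 genes described here are all the genes that the authors' deposited table lists as significant between D45/- and +/- livers, out of 2036 distinct genes (3099 results) that it lists over its 3 genotype comparisons. D45/- livers carried the MommeD45 allele over a null Klf1 allele, -/- livers carried no intact allele, and +/- livers carried 1 intact allele over a null allele, with 3 mRNA samples each. D45/- and +/- livers therefore shared a null allele and differed in the other. The sources used here do not give which part of the gene the null allele lacks, or whether a replicate was 1 liver or several. Because the table holds only significant results, the counts and sizes given for these genes describe the authors' calls and are not a further test. Every FPKM, log2 ratio and q in the text comes from the authors' deposited table. Each log2 ratio is D45/- over +/- unless another pair is named, so a negative value means lower in D45/-.

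KLF1 is a zinc finger protein that binds CACCC-type DNA letters in promoters and enhancers of genes used by maturing red cells. It is known as an activator of adult beta-globin and of genes for the red cell membrane, heme synthesis, cell cycle exit and blood group antigens. A linker is the short stretch of protein between neighbouring zinc fingers, which helps the fingers sit together on DNA. Most cells of the liver at this stage belong to the red cell lineage, and the organ also holds hepatocytes, macrophages, megakaryocytes and stromal cells.

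Values of -/- livers stand beside the others where the table gives them. The comparisons that -/- enters share their +/- or their D45/- livers with this one, so no agreement between comparisons is counted. The table gives 1 abundance per genotype, so the spread between replicates is unknown and no SD stands beside a value. Klf1 itself was at 398 FPKM in D45/-, 34.8 in -/- and 378 in +/- livers, and was not listed between D45/- and +/-. The red cell genes Alas2 and Slc4a1, which the table lists only in other comparisons, were at 1420.3 and 1689.6 FPKM in D45/- livers. In whole liver, fewer cells of a type and less RNA per cell cannot be told apart. Globin transcripts were depleted before sequencing, per the labels.

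In D45/- livers 142 genes were lower and 86 were higher than in +/- livers. The 228 genes are 1.76% of the 12965 genes assumed tested, the lower ones 1.10% and the higher ones 0.663%. The comparisons of -/- with +/- and of D45/- with -/- listed 13.8% and 8.37% in the same table. Lower genes had a median log2 ratio of -1.12 and ran between -0.71 and -4.31, leaving out Stfa1, which is listed at 0 in D45/-. Higher genes had a median of 1.09 and ran between 0.71 and 2.70, leaving out Snord89 and Tmem95, which are listed at 0 in +/-. The lower genes were also the more abundant ones. Their median FPKM in the genotype with more was 23.2, against 9.68 for the higher genes, and 24 lower and 11 higher genes reached 100 FPKM. The smallest listed q, 0.00159, was shared by 57 lower and 25 higher genes, and the largest was the 0.0491 of Myom1. With q adjusted within this comparison alone, 131 genes passed, 88 lower and 43 higher. A further 815 genes were not listed here but were listed both in D45/- against -/- and in -/- against +/-, which gave their values. They were thus chosen for a difference from -/- in both genotypes, and their ratios do not stand for all genes without a call. Their median log2 ratio was -0.06, and 9 of the 814 with a finite ratio reached a size of 1, among them the gamma-glutamyl cyclotransferase gene Chac1 (-1.43) and the muscle actin gene Acta1 (1.13).

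**Figure D1:**
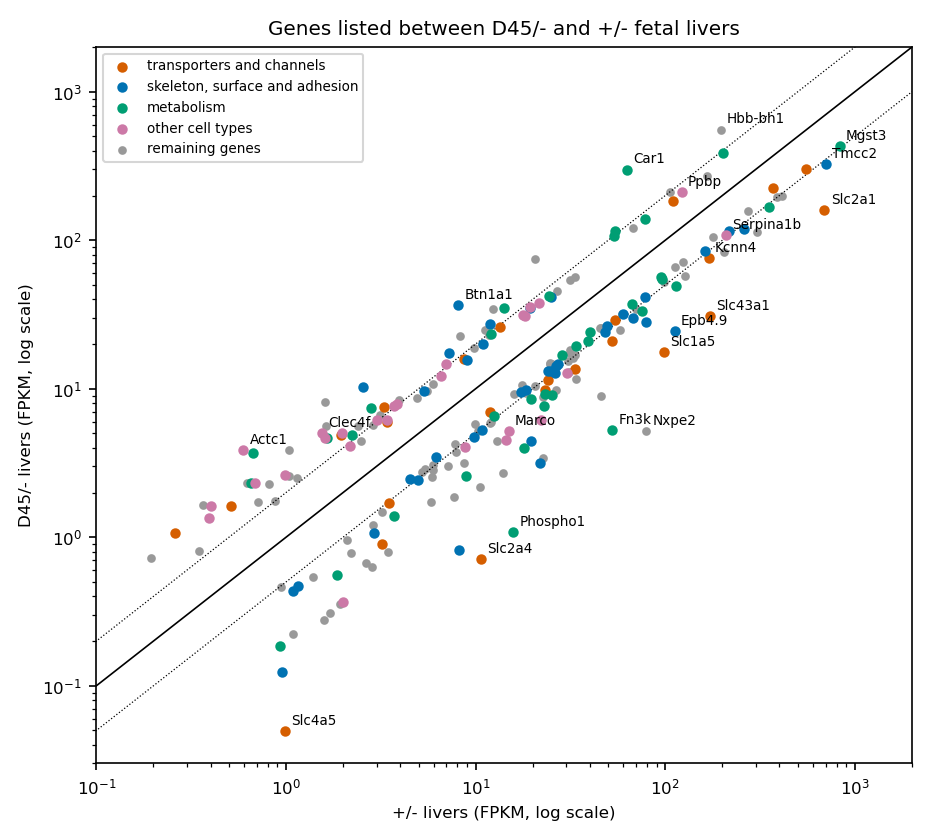
Abundance of the listed genes in D45/- (vertical) and +/- livers (horizontal), both in FPKM on log scales; each point is a gene, the solid line marks equal abundance and the dotted lines a log2 ratio of 1 in either direction. The named points were picked by hand, among them Slc2a1 at 159 FPKM in D45/- against 690.4 in +/- livers. The 3 genes listed at 0 in a genotype are not drawn.

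Transporters and channels, leaving out mitochondrial carriers, made up 21 of the 228 genes, 13 lower and 8 higher in D45/- livers. The lower ones carried sugars, amino acids, anions and potassium, and their median log2 ratio was -1.32. The glucose carrier gene Slc2a1 (chr4:118781349-118809934, mm9), which encodes GLUT1, was at 159 FPKM in D45/-, 111 in -/- and 690.4 in +/- livers by the authors' deposited table (log2 ratio -2.12). Its insulin-responsive relative Slc2a4 (chr11:69755787-69761692), which encodes GLUT4, was at 0.714 FPKM in D45/-, 0.217 in -/- and 10.7 in +/- livers by the authors' deposited table (-3.91). Both hexose carriers were lowest in -/- and highest in +/- livers, and D45/- was listed above -/- for Slc2a4 and not for Slc2a1. Slc1a5, a carrier of glutamine and other neutral amino acids, was at 17.7 FPKM in D45/-, 17.6 in -/- and 98.5 in +/- livers by the authors' deposited table (-2.47). The D45/- and -/- values of Slc1a5 were almost equal, and the table lists no difference between them. Slc43a1, a carrier of large neutral amino acids, was at 31.0 FPKM in D45/-, 8.66 in -/- and 172 in +/- livers by the authors' deposited table (-2.48). Here D45/- stood between the other genotypes and was listed above -/- (log2 ratio 1.84).

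Ion channels and ion carriers were among the lower genes too. Kcnn4 (chr7:25155281-25170231), the calcium-activated potassium channel of red cells known as the Gardos channel, was at 75.5 FPKM in D45/-, 18.6 in -/- and 169.6 in +/- livers by the authors' deposited table (-1.17). Slc22a4, a carrier of ergothioneine, was at 11.5 FPKM in D45/-, 1.43 in -/- and 24.1 in +/- livers by the authors' deposited table (-1.06). The sulfate carrier gene Slc26a1 was at 9.85 FPKM in D45/-, 3.64 in -/- and 23.3 in +/- livers by the authors' deposited table (-1.24). All 3 were listed above -/- in D45/- livers and below +/- livers. The neighbouring channel-like genes Tmc6 and Tmc8 moved together, with log2 ratios of -1.32 and -1.30 by the authors' deposited table. Ano1, a calcium-activated chloride channel, was at 0.899 FPKM in D45/-, 0.937 in -/- and 3.21 in +/- livers by the authors' deposited table (-1.84). Slc4a5, a sodium bicarbonate carrier, had the lowest ratio of all finite ones (-4.31) but little RNA, at 0.0497 FPKM in D45/-, 0.0483 in -/- and 0.984 in +/- livers by the authors' deposited table. The potassium-chloride carrier gene Slc12a4 (-0.78) and the pacemaker channel gene Hcn3 (-1.03) were also lower by the authors' deposited table, and were the only 2 of the 13 that did not pass with q adjusted within the comparison.

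The 8 transport genes that were higher in D45/- had a median log2 ratio of 1.08 and were mostly of low abundance. Slc39a8, an importer of zinc and other metals, was the exception at 184 FPKM in D45/- and 110.0 in +/- livers by the authors' deposited table (0.75). The zinc exporter gene Slc30a1 was at 15.8 FPKM in D45/-, 18.1 in -/- and 8.70 in +/- livers by the authors' deposited table (0.86). Spns2, which exports sphingosine 1-phosphate, was at 26.2 FPKM in D45/- and 13.5 in +/- livers by the authors' deposited table (0.96). The bile acid carrier gene Slc10a1 (2.03), the choline-transporter-like gene Slc44a5 (1.66) and the dopamine carrier gene Slc6a3 (1.33) had the largest ratios by the authors' deposited table, and all 3 stayed under 5 FPKM. The water channel gene Aqp8 (1.20) and the flippase gene Atp11a (0.80) completed the group. Only Spns2, Slc6a3 and Slc44a5 passed with q adjusted within the comparison.

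**Figure D2:**
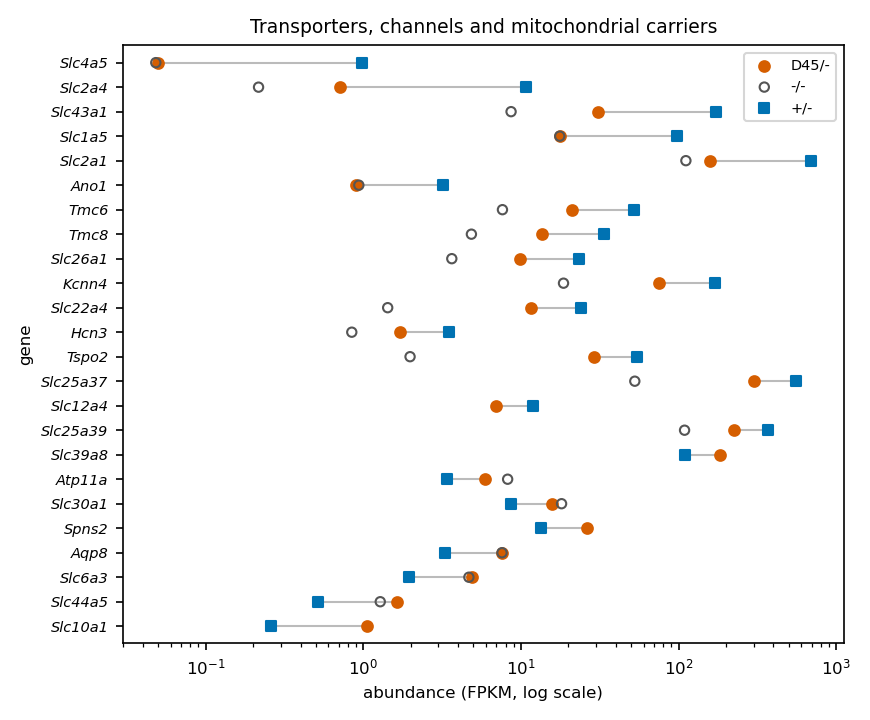
Abundance (FPKM, log scale) of the transporter, channel, mitochondrial carrier and heme genes listed between D45/- and +/- livers, 1 row a gene. Filled circles are D45/-, open circles -/- where a value is given, and squares +/-. Slc1a5 has its D45/- and -/- symbols on top of each other at 17.7 and 17.6 FPKM, while Slc22a4 has 11.5 in D45/- and 1.43 in -/-.

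A list of 50 red cell transporters and channels, chosen with earlier results of these data known, held 7 lower genes and 1 higher gene, or 16% of the list against 1.76% of all genes tested. Of its other members 19 were listed only in other comparisons and 23 were absent from the authors' deposited table. Band 3, the main anion exchanger of red cells (Slc4a1), was at 1689.6 FPKM in D45/-, 568 in -/- and 2086 in +/- livers there and not listed here. Slc38a5 (-0.01), Slc29a1 (-0.46), Atp2b4 (-0.50) and Aqp3 (0.32) also had a value in both genotypes and no call by the authors' deposited table.

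The promoters of 2 of the lower transport genes held the letters CCACACCC, a form of the CACCC element that KLF1 binds, within 250 bases before the start. They are shown 5′ to 3′ on the gene's own strand, from RefSeq on GRCm38.p6, with the motif in capitals, which here reads GGGTGTGG because it lies on the opposite strand. Kcnn4 is at chr7:24370021-24370080 on the plus strand and Slc22a4 at chr11:54028121-54028180 on the minus strand.
Kcnn4: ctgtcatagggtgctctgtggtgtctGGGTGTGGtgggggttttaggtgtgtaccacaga
Slc22a4: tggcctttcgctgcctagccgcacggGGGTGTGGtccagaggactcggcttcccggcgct
The motif began 216 bases before the start of Kcnn4 and 50 before that of Slc22a4. Over both strands, CCACACCC was found before 9 of 115 lower genes with a RefSeq promoter (7.83%, exact 95% interval 3.64 to 14.3) and 0 of 66 higher genes (0%, 0 to 5.44). It was found before 3.86% of 17492 protein-coding genes and 4.08% of 1447 genes listed only in other comparisons. The other lower genes that held it were Cadm3, Sox6, Fcho1, Dnaja4, 1700001L05Rik, Hspa1b and Hspa1a. Hspa1b and Hspa1a are near-identical copies that hold it at the same place, 239 bases before the start, and count as 2 of the 9. The looser pattern CCNCNCCC, which includes CCACACCC, was before 70.4% of the lower and 60.6% of the higher genes, against 70.3% of genes listed only elsewhere and 55.2% of protein-coding genes. AGATAA, a form of the GATA factor site, was before 12.2% of the lower and 16.7% of the higher genes, against 10.3% of protein-coding genes. A match describes the letters and is not a measured site, and the intervals cover counting error only.

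Membrane skeleton, cytoskeleton and nuclear envelope genes were lower in D45/- in 16 of 18 cases, with a median log2 ratio of -1.01. Dematin, an actin-binding protein of the red cell membrane skeleton encoded by Epb4.9 (chr14:71001990-71035855, mm9), was at 24.3 FPKM in D45/-, 0.400 in -/- and 112 in +/- livers by the authors' deposited table (-2.21). D45/- lay between the other genotypes and was listed apart from both. Abi3, an adaptor of actin regulation, was at 3.16 FPKM in D45/-, 2.26 in -/- and 21.8 in +/- livers by the authors' deposited table (-2.79). Its locus row is the same as that of Phospho1 (chr11:95685813-95707045), so the table does not separate their positions. Ehbp1l1 was at 28.0 FPKM in D45/-, 18.3 in -/- and 78.8 in +/- livers by the authors' deposited table (-1.50). Ttll12, a tubulin tyrosine ligase-like protein, was at 29.8 FPKM in D45/-, 15.5 in -/- and 67.5 in +/- livers by the authors' deposited table (-1.18). Tmcc2, a membrane protein with coiled coils, was the most abundant of the group at 326 FPKM in D45/-, 117 in -/- and 701 in +/- livers by the authors' deposited table (-1.10).

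Nuclear envelope and export genes were among the lower ones. Lmna, which encodes lamins A and C, was at 115 FPKM in D45/-, 119 in -/- and 216 in +/- livers by the authors' deposited table (-0.90). Sun1, which links the lamina to the cytoskeleton, was at 14.2 FPKM in D45/-, 15.5 in -/- and 26.5 in +/- livers by the authors' deposited table (-0.90). For both, D45/- was within a few FPKM of -/-, and the table lists no difference between those genotypes. The exportin gene Xpo7 was at 24.0 FPKM in D45/-, 9.31 in -/- and 47.9 in +/- livers by the authors' deposited table (-0.997). The remaining lower genes were Krt15, Fcho1, Myo1d, Sept1, Tagln3, Arhgdig, Sept8 and Dclk2, at log2 ratios between -1.06 and -0.89. The 2 higher genes were Amot (1.19) and the endocytic adaptor gene Ston2 (0.87). Of these, 11 of the 16 lower and both higher genes passed with q adjusted within the comparison.

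Most core genes of the red cell skeleton were not listed. Of a list of 29 membrane skeleton genes, Epb4.9 and Tmcc2 were lower (6.90%, against 1.76% of all genes tested), 17 were listed only in other comparisons and 10 were absent. Among those without a call here were beta spectrin (Sptb -0.26), ankyrin (Ank1 -0.50), protein 4.2 (Epb4.2 -0.57), adducin (Add1 -0.32, Add2 0.14) and tropomodulin (Tmod1 -0.41), as log2 ratios by the authors' deposited table. Ank1 was at 219 FPKM in D45/-, 47.2 in -/- and 309 in +/- livers. The missing calls do not show that D45/- and +/- livers were alike for these genes.

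Surface receptors and adhesion proteins gave 14 lower and 7 higher genes. Paqr6, a progestin and adipoQ receptor family member, was at 0.820 FPKM in D45/-, 0.166 in -/- and 8.20 in +/- livers by the authors' deposited table (-3.32). Darc, the Duffy blood group antigen and chemokine receptor, was at 4.42 FPKM in D45/-, 2.57 in -/- and 19.7 in +/- livers by the authors' deposited table (-2.16). Icam4, the Landsteiner-Wiener blood group antigen, was at 119 FPKM in D45/-, 25.5 in -/- and 259 in +/- livers by the authors' deposited table (-1.12). Both blood group genes were highest in +/- livers, and Icam4 but not Darc was listed above -/- in D45/-. Lgals1, which encodes galectin 1, was at 84.7 FPKM in D45/-, 56.0 in -/- and 163 in +/- livers by the authors' deposited table (-0.94). The other lower genes were Tmem130 (-2.94, at most 1.41 FPKM in any genotype), Lingo3, Cntn3, Cadm3, Relt, Adra2b, Cercam, Tnfrsf21, Sema5a and Lrp8, at log2 ratios between -1.46 and -0.83 by the authors' deposited table. Of 23 blood group and adhesion genes on a list, Darc and Icam4 were lower (8.70%, against 1.76%), and Kel (-0.42), Rhd (-0.59) and Ermap (-0.54) had values and no call.

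The higher surface genes were led by Btn1a1, a butyrophilin known from the milk fat membrane, at 36.7 FPKM in D45/-, 28.0 in -/- and 8.08 in +/- livers by the authors' deposited table (2.18). Cxcr7, a receptor for the chemokine CXCL12, was at 10.3 FPKM in D45/-, 16.2 in -/- and 2.55 in +/- livers by the authors' deposited table (2.02). Muc6, a secreted mucin of the stomach, was at 17.3 FPKM in D45/-, 5.10 in -/- and 7.27 in +/- livers by the authors' deposited table (1.25). D45/- was the highest genotype for Muc6, and was listed above -/- as well. Prokr1, a prokineticin receptor, was likewise highest in D45/-, at 34.7 FPKM in D45/-, 7.86 in -/- and 19.4 in +/- livers by the authors' deposited table (0.84). Cntnap2 (0.87), Pkhd1l1 (0.80) and Treml2 (0.73) completed the group. In all, 9 lower and 4 higher surface genes passed with q adjusted within the comparison.

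**Figure D3:**
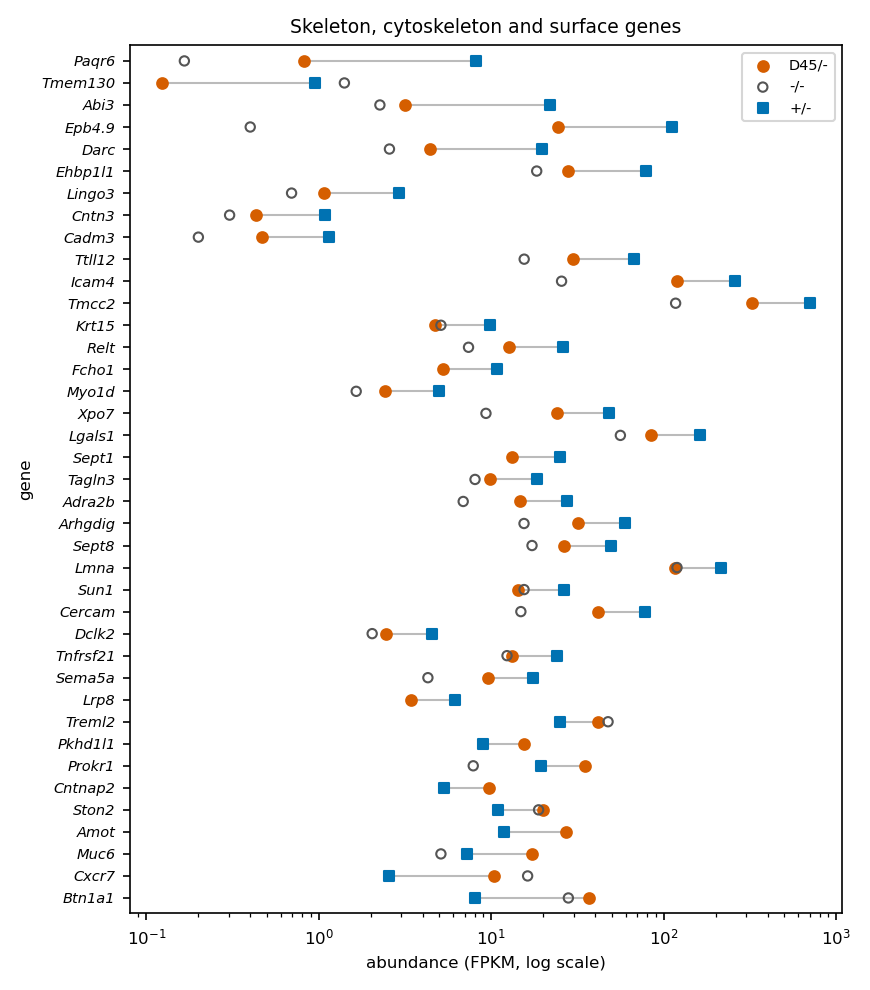
Abundance (FPKM, log scale) of skeleton, cytoskeleton, nuclear envelope and surface genes listed between D45/- and +/- livers, with symbols for D45/- (filled circles), -/- (open circles) and +/- (squares). Epb4.9 spans 24.3 FPKM in D45/-, 0.400 in -/- and 112 in +/-, and in the bottom 9 rows D45/- lies above +/-.

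Lipid genes gave 10 lower and 3 higher members. Phospho1, a phosphatase of phosphocholine and phosphoethanolamine, was at 1.08 FPKM in D45/-, 0.729 in -/- and 15.8 in +/- livers by the authors' deposited table (-3.86). Mgll, which splits monoacylglycerols, was at 4.01 FPKM in D45/-, 5.99 in -/- and 17.9 in +/- livers by the authors' deposited table (-2.16). Its value was lowest in D45/-, and no difference from -/- is listed. Ces2g, a carboxylesterase, was at 7.60 FPKM in D45/-, 6.91 in -/- and 22.8 in +/- livers by the authors' deposited table (-1.59). The acyltransferase gene Agpat4 was at 9.10 FPKM in D45/-, 8.03 in -/- and 25.4 in +/- livers by the authors' deposited table (-1.48). Lpcat1, which reacylates lysophosphatidylcholine, was at 54.8 FPKM in D45/-, 19.3 in -/- and 96.5 in +/- livers by the authors' deposited table (-0.82). The other lower genes were Apol11b (-2.33, under 1 FPKM in each genotype), Acot11, Mid1ip1 and the phospholipase genes Pla2g16 and Pla2g12a, the last 4 at log2 ratios between -0.94 and -0.76. Higher were the steroid dehydrogenase gene Hsd3b6 at 106 FPKM in D45/-, 256 in -/- and 53.4 in +/- livers by the authors' deposited table (0.99), the lysoplasmalogenase gene Tmem86b (1.09) and Gdpd3 (1.51). Within-comparison q left 6 lower and 2 higher lipid genes. A list of 28 lipid genes held 2 lower members, Phospho1 and Paqr6 (7.14%, against 1.76% of all genes tested). It was chosen with earlier results of these data known, and Paqr6 is grouped above with the surface receptors, so this share cannot show enrichment.

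Other metabolic genes split into 13 lower and 10 higher. Fn3k (chr11:121296266-121311804, mm9), a kinase that removes sugars bound to proteins, was at 5.27 FPKM in D45/-, 0.376 in -/- and 52.4 in +/- livers by the authors' deposited table (-3.31). Its neighbour and relative Fn3krp was at 8.51 FPKM in D45/-, 3.35 in -/- and 19.5 in +/- livers by the authors' deposited table (-1.20). Pklr, the pyruvate kinase of red cells and liver, was at 168 FPKM in D45/-, 34.4 in -/- and 354 in +/- livers by the authors' deposited table (-1.08). Each of these 3 lay above -/- and below +/- in D45/- livers, with both differences listed. Mgst3, a microsomal glutathione transferase, was at 430.3 FPKM in D45/-, 55.01 in -/- and 829 in +/- livers by the authors' deposited table (-0.95). Sod2, the mitochondrial superoxide dismutase, was at 37.0 FPKM in D45/-, 14.9 in -/- and 67.1 in +/- livers by the authors' deposited table (-0.86). Mpst, a sulfurtransferase, was at 49.5 FPKM in D45/-, 26.5 in -/- and 114 in +/- livers by the authors' deposited table (-1.20). Dck, the deoxycytidine kinase of nucleoside salvage, was at 33.1 FPKM in D45/-, 16.9 in -/- and 75.6 in +/- livers by the authors' deposited table (-1.19). The glycan enzyme genes B3gnt3 (-1.78) and Hs6st1 (-1.33) were lower too, as were Hpdl, Gstm3, Ppa2 and Pepd, at log2 ratios between -1.75 and -0.74 by the authors' deposited table. Of 23 glycolysis and pentose phosphate genes on a list, Pklr was the 1 called gene (4.35%, against 1.76%). Aldoa (0.01), Pgk1 (-0.03), Gpi1 (-0.09) and Pkm (-0.14) had values in both genotypes and no call. The 18 redox and glycation genes on another list held 3 lower ones, Fn3k, Fn3krp and Sod2 (16.7%, against 1.76%).

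Among the higher metabolic genes the carbonic anhydrase gene Car1 was at 299 FPKM in D45/-, 257 in -/- and 62.4 in +/- livers by the authors' deposited table (2.26). Car3, another carbonic anhydrase, was at 35.2 FPKM in D45/-, 8.31 in -/- and 14.02 in +/- livers by the authors' deposited table (1.33). D45/- was listed above -/- for Car3, and for Car1 no difference between those genotypes is listed. They were the 2 calls among 14 carbonic anhydrase genes on a list (14.3%, against 1.76%). Glt28d2, a glycosyltransferase family gene, was at 3.70 FPKM in D45/-, 5.39 in -/- and 0.673 in +/- livers by the authors' deposited table (2.46). Aldh1a1, which makes retinoic acid from retinal, was at 2.33 FPKM in D45/- and 0.657 in +/- livers by the authors' deposited table (1.83). Cox6b2, a cytochrome c oxidase subunit known from testis, was at 389 FPKM in D45/-, 427 in -/- and 200.4 in +/- livers by the authors' deposited table (0.96). The others were Hyal1 (1.41), Pm20d1 (1.12), Pdk2 (0.95), Gsta4 (0.82) and St3gal6 (0.78). With q adjusted within the comparison 9 lower and 7 higher metabolic genes passed. The 24 amino acid and one-carbon genes on a list held 1 call, Cps1 higher (4.17%, against 1.76%), and 17 iron handling genes held none.

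**Figure D4:**
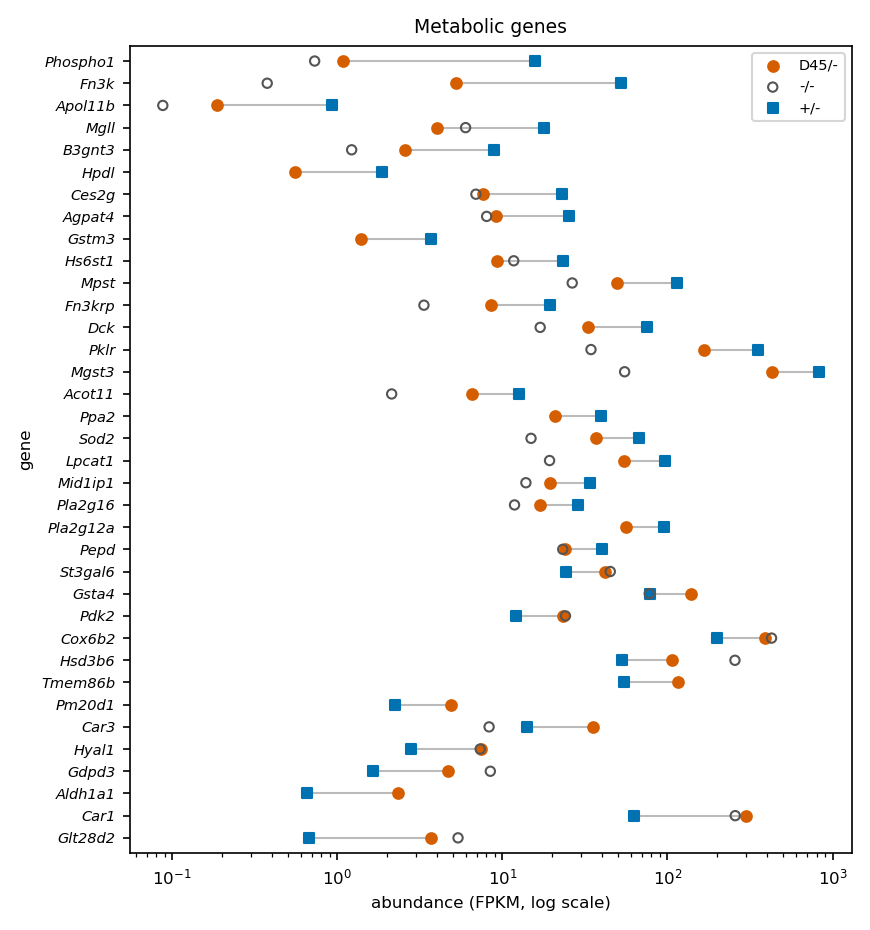
Abundance (FPKM, log scale) of lipid and other metabolic genes listed between D45/- and +/- livers, with symbols for D45/- (filled circles), -/- (open circles) and +/- (squares). Fn3k has 5.27 FPKM in D45/-, 0.376 in -/- and 52.4 in +/- livers, and Car1 has 299 in D45/-, 257 in -/- and 62.4 in +/- livers.

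The group of mitochondrial carriers and heme genes held Slc25a37, Slc25a39 and Tspo2. All were lower in D45/-, and none of the 3 passed with q adjusted within the comparison. Slc25a37, which carries iron into mitochondria, was at 302 FPKM in D45/-, 52.8 in -/- and 554 in +/- livers by the authors' deposited table (-0.87). Slc25a39, a mitochondrial carrier of glutathione, was at 225 FPKM in D45/-, 109 in -/- and 371 in +/- livers by the authors' deposited table (-0.73). Tspo2, a translocator protein of red cell precursors, was at 29.2 FPKM in D45/-, 1.98 in -/- and 54.3 in +/- livers by the authors' deposited table (-0.90). They were the 3 called members of a list of 20 heme genes (15%, against 1.76% of all genes tested). Among the enzymes of heme synthesis on that list without a call here, the log2 ratios were -0.18 for Alas2, -0.69 for Alad and -0.23 for Urod by the authors' deposited table.

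Transcription and cell cycle regulators gave 12 lower and 5 higher genes. Rgcc, a regulator of the cell cycle, had the largest fall, at 3.39 FPKM in D45/-, 4.26 in -/- and 22.7 in +/- livers by the authors' deposited table (-2.74). E2f2, a transcription factor of the cell cycle, was at 83.8 FPKM in D45/-, 20.6 in -/- and 203 in +/- livers by the authors' deposited table (-1.28). Its family member E2f4 was at 198 FPKM in D45/-, 80.7 in -/- and 413 in +/- livers by the authors' deposited table (-1.06). Klf3, a repressor that binds letters like those of KLF1, was at 34.2 FPKM in D45/-, 10.8 in -/- and 70.04 in +/- livers by the authors' deposited table (-1.04). For E2f2, E2f4 and Klf3, D45/- lay between the other genotypes, listed apart from each. Bcl11a and Sox6, repressors of embryonic globin genes, were at log2 ratios of -1.0002 and -0.79 by the authors' deposited table. Neither of these passed with q adjusted within the comparison. The embryonic globin gene Hbb-bh1 was higher, at 555 FPKM in D45/-, 883 in -/- and 196 in +/- livers by the authors' deposited table (1.504), and was the 1 call among 12 globin genes on a list (8.33%, against 1.76%). Hbb-y, an embryonic globin gene next to it, was at 2003 FPKM in D45/-, 10394 in -/- and 2554 in +/- livers by the authors' deposited table and had no call here. Globin copies may share reads. Other lower regulators were Nr2e3, Klf11, Cdkn2d, Zfp341, Pir and Med13l, at log2 ratios between -2.29 and -0.71 by the authors' deposited table. Higher were Zfp790 (1.08), Crebrf (0.997), Ncoa3 (0.93), Kdm5b (0.85) and Scai (0.84). With q adjusted within the comparison 5 lower and 2 higher regulators passed. Of 30 erythroid transcription factors on a list 5 were lower (16.7%), and of 32 cell cycle genes 3 were (9.38%), against 1.10% of all genes tested that were lower. E2f2 and E2f4 were called on both lists, so these shares overlap, and Cdkn2d was the other cell cycle call. Of the transcription factors Tal1 (-0.11), Nfe2 (0.04) and Ikzf1 (-0.10) had no call.

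Heat shock and protein turnover genes were lower in 10 of 12 cases. Hspa1b was at 2.19 FPKM in D45/-, 17.5 in -/- and 10.6 in +/- livers by the authors' deposited table (-2.27). Its near-identical copy Hspa1a was at 4.43 FPKM in D45/-, 19.5 in -/- and 13.0 in +/- livers by the authors' deposited table (-1.55). These encode inducible HSP70, they may share reads, and D45/- was listed below both other genotypes for each. The co-chaperone gene Dnaja4 was at 11.6 FPKM in D45/-, 12.6 in -/- and 33.8 in +/- livers by the authors' deposited table (-1.54). Ubac1 and Rnf123 encode the subunits of a ubiquitin ligase. Ubac1 was at 114 FPKM in D45/-, 25.6 in -/- and 305 in +/- livers by the authors' deposited table (-1.42), and Rnf123 was at 71.1 FPKM in D45/-, 28.4 in -/- and 124 in +/- livers (-0.81). The calpain inhibitor gene Cast (-1.44) and the cathepsin gene Ctsf (-1.47) were lower too, as were Rnf11, Klhl7 and Sppl2b, at log2 ratios between -1.21 and -0.88 by the authors' deposited table. Dcaf12l1 (0.99) and Dcaf6 (0.79) were higher, and neither passed with q adjusted within the comparison, whereas 9 of the 10 lower genes passed. A list of 28 heat shock and stress genes held 3 lower members (Hspa1a, Hspa1b and Ier3) and 1 higher (14.3%, against 1.76% of all genes tested). The higher one was Trib3, a stress-induced pseudokinase, at 6.69 FPKM in D45/-, 33.4 in -/- and 3.13 in +/- livers by the authors' deposited table (1.10), which did not pass with q adjusted within the comparison.

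Signalling genes gave 17 lower and 8 higher members, of which 8 and 3 passed with q adjusted within the comparison. Socs3, an inhibitor of cytokine signalling, was at 1.74 FPKM in D45/-, 6.39 in -/- and 5.79 in +/- livers by the authors' deposited table (-1.74). It too was lowest in D45/-, and was listed below -/-. Sh3tc2 was at 0.793 FPKM in D45/-, 0.608 in -/- and 3.44 in +/- livers by the authors' deposited table (-2.12). Eef2k, the kinase of an elongation factor, was at 13.0 FPKM in D45/-, 8.45 in -/- and 31.1 in +/- livers by the authors' deposited table (-1.26). Ptp4a3, a phosphatase, was at 57.8 FPKM in D45/-, 14.3 in -/- and 127 in +/- livers by the authors' deposited table (-1.14). The other lower genes, Artn, Gdf3, Nlrp1a, Homer2, Ier3, Stk10, Plekhg5, Clk3, Adcy7, Ppp2r4, Spata13, Traf4 and Fnip2, had log2 ratios between -1.20 and -0.72 by the authors' deposited table. Ltbp2 (1.88), Kctd11 (1.77) and Rap1gap (1.48) led the higher genes. Rap1gap, which turns off the small GTPase RAP1, was at 34.3 FPKM in D45/-, 27.9 in -/- and 12.3 in +/- livers by the authors' deposited table. Pik3c2g, Trib3, Ppp1r13b, Rps6ka1 and Rgs10 followed, at log2 ratios between 1.23 and 0.71.

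Megakaryocyte and platelet genes were higher in D45/- without exception among the listed ones. Of 26 markers on a list, 6 were higher and 0 lower (23.1%, against 1.76% of all genes tested), 15 were listed only in other comparisons and 5 were absent. Ppbp, a platelet chemokine, was at 212 FPKM in D45/-, 295 in -/- and 122 in +/- livers by the authors' deposited table (0.79). Plek, which encodes pleckstrin, was at 31.6 FPKM in D45/-, 47.4 in -/- and 17.8 in +/- livers by the authors' deposited table (0.83). Itgb3, the beta chain of the platelet fibrinogen receptor, was at 30.9 FPKM in D45/-, 45.8 in -/- and 18.2 in +/- livers by the authors' deposited table (0.77). Mmrn1 (0.89), Rab27b (0.93) and Slamf1 (1.03), which also marks stem cells, were the others. None of the 6 calls passed with q adjusted within the comparison. Clec1b (0.35) and Thbs1 (0.53) had a value in both genotypes and no call by the authors' deposited table. The 8 megakaryocyte markers with a value in all 3 genotypes, which are these and the 6 called, summed to 417 FPKM in D45/-, 683 in -/- and 255 in +/- livers, and none of the 8 was at 0. A marker has a D45/- value only where a comparison with D45/- lists it, so the 6 calls helped to choose the sum. Markers listed only in -/- against +/-, such as Pf4 (469 FPKM in +/-), are not in it. The sums therefore do not stand for megakaryocyte RNA as a whole. The part of megakaryocyte RNA in the other results was not tested. Slamf1 was also the 1 call among 20 stem and early progenitor markers (5%, against 1.76%).

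Macrophage, lymphoid and antigen presentation genes split evenly, 3 lower and 3 higher. Marco, a scavenger receptor of macrophages, was at 5.19 FPKM in D45/-, 25.7 in -/- and 14.9 in +/- livers by the authors' deposited table (-1.53). Clec4f, a lectin of Kupffer cells, was at 5.03 FPKM in D45/-, 2.30 in -/- and 1.55 in +/- livers by the authors' deposited table (1.70). The 2 macrophage genes went opposite ways, and for each D45/- lay beyond both other genotypes, with both differences listed. They were the 2 calls among 24 macrophage markers (8.33%, against 1.76%), of which Spic (-0.51), Siglec1 (-0.30), Lyz2 (0.20), Cybb (0.14), Ctss (-0.08) and Hmox1 (0.17) had values and no call. The 8 macrophage markers with a value in all 3 genotypes summed to 267 FPKM in D45/-, 489 in -/- and 247 in +/- livers. Most of each sum came from Hmox1 (138 FPKM in D45/-, 123 in +/-) and Lyz2 (91.8 and 79.8). The sums therefore do not stand for macrophage RNA as a whole. The T cell kinase gene Lck was at 4.02 FPKM in D45/-, 3.18 in -/- and 8.81 in +/- livers by the authors' deposited table (-1.13). The cytokine gene Il22 (-2.45) and the class II gene H2-Aa (2.02) were at no more than 2.00 FPKM in D45/- and +/- livers, and neither passed with q adjusted within the comparison. Of the granulocyte and mast cell markers (20 genes) and the endothelial and stromal markers (20 genes), none was called in this comparison by the authors' cuffdiff test at a q under 0.05. An unadjusted p for their members is not listed.

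Genes of liver secretion and enzymes gave 2 lower and 8 higher members. Serpina1b, an alpha-1-antitrypsin gene, was at 109 FPKM in D45/-, 247 in -/- and 209.5 in +/- livers by the authors' deposited table (-0.95). Its relative Serpina1e was at 6.15 FPKM in D45/-, 23.2 in -/- and 22.2 in +/- livers by the authors' deposited table (-1.85). The copies of this family may share reads. Cps1, an enzyme of the urea cycle, was at 7.85 FPKM in D45/-, 4.18 in -/- and 3.87 in +/- livers by the authors' deposited table (1.02). The cytochrome genes Cyp3a11 (1.54) and Cyp3a16 (1.08), also close copies, the paraoxonase gene Pon1 (1.42), the protease inhibitor gene Serpina3n (1.35), Klkb1 (1.05), Bhmt (0.88) and A2m (0.81) were higher by the authors' deposited table. With q adjusted within the comparison both lower genes and 3 of the 8 higher genes passed. Of 25 hepatocyte markers on a list, Serpina1b was lower, Cps1 was higher (8%, against 1.76%) and 21 were absent from the table, so the level of hepatocyte RNA as a whole was not measured here.

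Single genes known from muscle, nerve and other tissues were listed as well. The cardiac actin gene Actc1 had the largest finite rise, at 3.87 FPKM in D45/-, 0.337 in -/- and 0.594 in +/- livers by the authors' deposited table (2.70). Mybpc3, a cardiac myosin-binding protein, was at 2.31 FPKM in D45/-, 8.07 in -/- and 0.684 in +/- livers by the authors' deposited table (1.76). Myom1 was higher (0.85) and the muscle kinase gene Speg lower (-1.26) by the authors' deposited table. Of 28 genes of muscle, nerve and other tissues on a list, Actc1 and Btn1a1 were called (7.14%, against 1.76%), and 23 were absent from the table. That list was chosen with earlier results of these data known, and Btn1a1 is grouped above with the surface genes, so this share cannot show enrichment. The neurokinin B gene Tac2 was at 4.49 FPKM in D45/-, 3.07 in -/- and 14.5 in +/- livers by the authors' deposited table (-1.69), and the granin gene Chga was higher (1.78) at 1.35 FPKM in D45/-. The stefin gene Stfa1, a cysteine protease inhibitor of blood cells, was listed at 0 in D45/-, 209 FPKM in -/- and 101 in +/- livers by the authors' deposited table. The stefin-like gene Gm5483 was higher, at 210.4 FPKM in D45/-, 329 in -/- and 106 in +/- livers by the authors' deposited table (0.99). Stefin copies are near-identical, so reads may be divided between them.

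**Figure D5:**
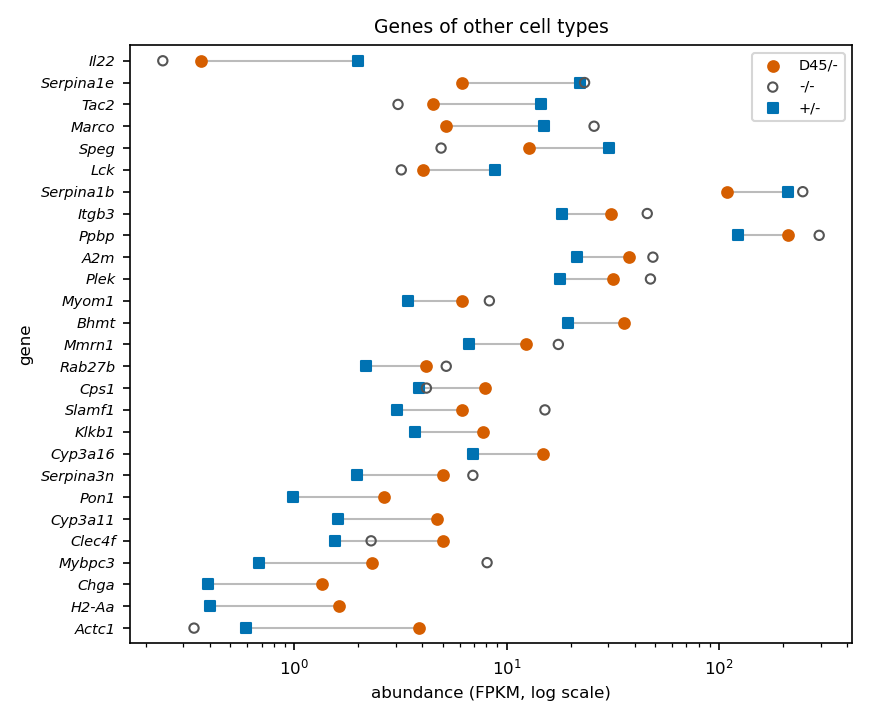
Abundance (FPKM, log scale) of genes known from megakaryocytes, macrophages, lymphoid cells, liver, muscle and nerve that are listed between D45/- and +/- livers, with symbols for D45/- (filled circles), -/- (open circles) and +/- (squares). The 5 megakaryocyte genes drawn in this set, such as Ppbp at 212 FPKM in D45/-, 295 in -/- and 122 in +/-, have D45/- between the other genotypes; Actc1, at 3.87 in D45/-, 0.337 in -/- and 0.594 in +/-, has it above both.

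The remaining 45 genes, 26 lower and 19 higher, were assigned no shared role, and the finite log2 ratios ran between -0.78 and -3.93 for the lower and between 0.75 and 2.34 for the higher. Nxpe2 (chr9:48126086-48148981, mm9) was at 5.19 FPKM in D45/-, 0.825 in -/- and 79.2 in +/- livers by the authors' deposited table (-3.93), the lowest ratio of the lower genes with at least 1 FPKM in +/-. Sowaha was at 2.70 FPKM in D45/-, 0.0641 in -/- and 13.9 in +/- livers by the authors' deposited table (-2.37). Fam53b was at 8.92 FPKM in D45/-, 5.52 in -/- and 45.8 in +/- livers by the authors' deposited table (-2.36). Phyhip (-2.52), Nacad (-2.48), Iqcd (-2.45) and Wdr65 (-2.16) had large ratios at under 3 FPKM in each genotype. The poly(A)-binding protein gene Pabpc4 was the most abundant lower one, at 195 FPKM in D45/-, 77.0 in -/- and 387 in +/- livers by the authors' deposited table (-0.99). Among the higher genes Fam160a1 was at 8.16 FPKM in D45/-, 11.6 in -/- and 1.61 in +/- livers by the authors' deposited table (2.34). Gm5177 (2.17) and 2410066E13Rik (1.90) had the next ratios. Glipr2, a protein of the Golgi membrane, was at 121 FPKM in D45/-, 54.0 in -/- and 67.2 in +/- livers by the authors' deposited table (0.85), highest in D45/- and listed above -/- as well. The sperm membrane gene Tmem95 was at 1.18 FPKM in D45/- and listed at 0 in +/- livers. Snord89, a small nucleolar RNA, was at 31.1 FPKM in D45/- and listed at 0 in -/- and +/- livers. The samples were selected for poly(A), so how far these values measure a small nucleolar RNA is unknown.

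Some listed genes lay next to each other. Within 20 kb there were 13 pairs, 12 of them in the same direction, 10 lower and 2 higher. Fn3krp and Fn3k were 4184 bases apart, Tmc6 and Tmc8 1613 bases, Pklr and Hcn3 180 bases, and Darc and Cadm3 750 bases, all lower in D45/-. Tspo2 and Unc5cl (3399 bases) and Epb4.9 and Xpo7 (18197 bases) were lower pairs too. Ttc39a and Rnf11 were the pair that split, at log2 ratios of 0.75 and -1.21 by the authors' deposited table. Reads that run from a gene into its neighbour were not told apart here.

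KLF1 binding was measured by chromatin immunoprecipitation in MommeD45 and wildtype fetal livers, where 2 replicates were pooled into the 1 library of each genotype, so there is no test between genotypes. The sources used here do not give how many copies of MommeD45 those livers carried. A MommeD45 peak lay within 10 kb of 15 of the 142 lower genes (10.6%, exact 95% interval 6.03 to 16.8) and 1 of the 86 higher genes (1.16%, 0.0294 to 6.31), against 134 of 1808 genes listed only in other comparisons (7.41%, 6.25 to 8.72). A wildtype peak lay within 10 kb of 44 lower genes (31.0%, 23.5 to 39.3) and 9 higher genes (10.5%, 4.898 to 18.9), against 274 of the 1808 (15.2%, 13.5 to 16.9). The median locus length was 18.2 kb for the lower genes, 25.6 kb for the higher genes and 21.7 kb for those listed only elsewhere. Of 761 genes that were lower in -/- than in +/- livers with no call in D45/- against +/-, 104 had a MommeD45 peak nearby (13.7%, 11.3 to 16.3) and 219 a wildtype peak (28.8%, 25.6 to 32.1). Both shares lie inside the intervals of the lower genes above. Of 857 genes higher in -/- than in +/- livers with no such call, 19 had a MommeD45 peak nearby (2.22%, 1.34 to 3.44). A wildtype peak lay near 34 of the 857 (3.97%, 2.76 to 5.50). The MommeD45 share lies inside the interval of the higher genes above, and the wildtype share lies below theirs. Of the 51 wildtype peaks near lower genes 12 overlapped a MommeD45 peak (23.5%, 12.8 to 37.5), against 361 of all 1203 wildtype peaks (30.0%).

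Several lower genes had a peak near the start. The strand, and so the start, was known for 115 of the 142 lower genes. In MommeD45 livers 3 of the 115 had a peak summit within 500 bases of the start, Rgcc, Ttll12 and Sun1, and in wildtype livers 12 of the 115 did. Ttll12 had the strongest of these, with a fold enrichment by the authors of 7.99 in MommeD45 and of 17.8 in wildtype livers, where the peak is at chr15:83425467-83425887 (mm9). The strongest peaks near lower genes lay inside Phyhip (30.6-fold in MommeD45 and 37.2-fold in wildtype livers) and Agpat4 (23.5-fold and 23.9-fold), and overlapped between the genotypes. E2f2 had a peak inside the gene in both genotypes, of 7.05-fold in MommeD45 and 12.3-fold in wildtype livers. Kcnn4 likewise had an inner peak in both, of 6.89-fold in MommeD45 and 7.70-fold in wildtype livers, and a wildtype peak of 3.02-fold 451 bases before its start. For the next genes no MommeD45 peak overlapped the wildtype one. Icam4 had a wildtype peak of 7.84-fold enrichment at chr9:20833704-20834118, and Fn3krp one of 4.903-fold at chr11:121282526-121282751. Carhsp1, which encodes a small RNA-binding protein and was at 25.8 FPKM in D45/-, 15.0 in -/- and 45.2 in +/- livers by the authors' deposited table (-0.81), had one of 5.43-fold at chr16:8672135-8672418. Slc2a4 had a wildtype peak inside its locus (5.23-fold) and another across the locus edge (3.40-fold), with its summit outside. Epb4.9 had 2 inside its locus (4.896-fold and 3.46-fold), and Slc43a1 (3.98-fold) and Slc1a5 (4.66-fold) had 1 each. A fold enrichment is the peak's own value within its library, so values of different libraries show no change.

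The promoters below belong to 4 genes chosen from those with a wildtype summit near the start, and each holds a form of CCNCNCCC, given in capitals, so that the letters can be set beside the binding. They are from RefSeq on GRCm38.p6, 5′ to 3′ on the gene's strand, and 55.2% of protein-coding genes hold such a form in the 250 bases searched. The windows are chr11:121421301-121421360 on the plus strand for Fn3krp, chr16:8672154-8672209 on the minus strand for Carhsp1, chr9:21029342-21029401 on the plus strand for Icam4, and chr15:83595310-83595369 on the minus strand for Ttll12.
Fn3krp: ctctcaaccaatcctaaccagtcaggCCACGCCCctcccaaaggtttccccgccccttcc
Carhsp1: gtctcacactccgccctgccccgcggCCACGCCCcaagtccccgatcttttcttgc
Icam4: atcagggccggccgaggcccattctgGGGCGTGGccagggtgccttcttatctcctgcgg
Ttll12: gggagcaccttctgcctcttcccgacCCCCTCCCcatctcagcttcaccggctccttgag
Fn3krp and Carhsp1 hold the same 8 letters, CCACGCCC, and Icam4 holds GGGCGTGG, which is the opposite strand of CCACGCCC. The windows were chosen: Fn3krp holds further matches that overlap the one shown or lie after it, Carhsp1 also holds GGGCGTGG and Icam4 also GGGAGGGG. Rgcc and Lpcat1, which have a wildtype summit within 500 bases of the start too, hold other forms, such as CCCCGCCC in Rgcc and CCCCTCCC in Lpcat1. Pabpc4, with a wildtype summit 176 bases before its start, gave no match in the 250 bases searched. The letters before Wdr65, Tmc6, Mid1ip1 and Bsdc1, which also have such a summit, were not read out. The motif of Fn3krp began 46 bases before the start, and its wildtype summit lay 37 bases before the start of the locus in the authors' table. For Carhsp1 these were 30 and 29 bases. For Icam4 the motif began 64 bases before the start and the summit lay 29 bases after it, and for Ttll12 the motif was at 186 bases and the summit at 65 bases before. Motif positions count from the RefSeq start and peak positions from the locus in the authors' table, which are on different builds, so the distances compare only roughly.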

How the data were processed

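mRNA from fetal livers of 3 Klf1 genotypes (3 samples each) was treated to remove globin transcripts, selected for poly(A) and sequenced on an Ion Proton instrument, per the labels' protocols. The authors' deposited gene table is in cuffdiff layout, per the file headers, and holds 1 abundance per genotype, a log2 ratio, a test statistic (score), a p-value and a q-value for each significant result. The abundance is taken as FPKM from that layout, since the deposited table names no unit. Genotype codes come from the series design text. The submitters' processing notes name TopHat2 2.0.10 and genome build mm9, and the sources used here do not give the cuffdiff version. Depth is unknown and replicate values were not analysed here.

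The deposited log2 values run +/- over D45/-, so the sign was turned. No pseudocount was added. The deposited q-values match a single Benjamini-Hochberg adjustment of 38894 tests in 3 comparisons, and 12965 tests per comparison were assumed in the q adjusted within this comparison. This count of tests was recovered from q, rank and p, by a step tested on simulated data. No test of differences was added, since the table gives no replicates, so p-values rest on the authors' cuffdiff test alone. Nothing says that the replicates came from separate litters.

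The submitters' processing notes name Bowtie2, Picard and MACS2 for the peaks. The authors' deposited peak lists give, per the file headers, a pileup (signal), a fold enrichment (ratio) over local background and −log10 values of p and q. Shares carry exact Clopper-Pearson 95% intervals for counting error only. Near a gene means at most 10 kb from its mm9 locus, with strand taken from RefSeq. Promoters are the 250 bases before the start in RefSeq (GRCm38.p6), and 181 of the 228 genes matched, 10 of them under a newer symbol.

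The genes and all 22 lists were chosen with earlier results of these data known, and the 17 functional groups were assigned after the gene names were seen. Every listed gene could be named, with the largest ratios of each group first. Alternatives were a stricter q, abundance filters, a minimum log2 ratio, pseudocounts, and other peak distances. Python 3.11.15, pandas 2.3.3, numpy 2.4.6, scipy 1.17.1 and matplotlib 3.10.9 were used.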

Additional observations from a re-analysis of the deposited data

How the results depend on the processing

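The counts of listed genes, 142 lower and 86 higher in D45/-, depended on the threshold. They were 87 and 43 at a q under 0.01, 88 and 43 with q adjusted within the comparison, and 89 and 49 with a log2 ratio of at least 1 in size. With a pseudocount of 1 FPKM and the same minimum they were 60 and 27. Abundance filters of 1 and 5 FPKM moved neither count by over 1.5 times. The median log2 ratio of the lower genes was -0.94 with a pseudocount of 1 FPKM and -1.08 with 0.1, and that of the higher genes 0.86 and 1.07. With a pseudocount of 1, none of the 225 genes with a finite ratio changed direction.

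With q adjusted within the comparison the called members became 0 for higher transporters (Slc30a1 lost), lower heme genes, higher megakaryocyte markers, higher heat shock genes (Trib3 lost) and higher stem cell markers (Slamf1 lost), 3 for lower erythroid transcription factors (Bcl11a and Sox6 lost) and 1 for lower maturation genes, a list of 27 of which Nxpe2 and Rnf123 were called. Nxpe2 was put on that list with earlier results known, and is grouped above with the genes of no shared role. The share of lower genes near a wildtype peak was 40.8% within 50 kb and 18.3% with only peaks at or above the median fold enrichment, and that of higher genes was 19.8% within 50 kb. The share of higher genes near a MommeD45 peak was 9.30% within 50 kb. Of genes listed only in other comparisons, 25.2% had a wildtype peak within 50 kb and 8.52% one with only the stronger peaks counted. For MommeD45 peaks within 50 kb their share was 13.2%.

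No paired analysis was possible because the table used here holds 1 abundance per genotype, and leaving out single replicates was not run for the same reason. Which calls rest on 1 sample was therefore not tested. The 12965 tests per comparison are an assumption. Genes of low abundance limit the ratios: 26 lower and 26 higher genes stayed under 5 FPKM in each of the 2 genotypes.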
